A study of Homo sapiens with 24 samples.

Results

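The nuclear genes of the respiratory chain encode most of the protein subunits of the complexes in the inner mitochondrial membrane that oxidise NADH and succinate, pass the electrons to oxygen and use the resulting proton gradient to make ATP. They were taken here by name, as the core and accessory subunit genes of complexes I to V on the autosomes, and were followed by RNA sequencing in 2 squamous carcinoma lines of the head and neck (HNSCC). The name pattern took 77 of the 57820 annotated entries in each file, which stand for 73 genes, since 4 genes have a second, almost unread entry of at most 11 reads in a library. A further 2 genes matched the pattern but lie on chromosome X and were left out. Complex I is represented by 35 genes, complex II by 4, complex III by 9, complex IV by 10 and complex V by 15. NDUFA4 carries a complex I name but is counted with complex IV, where its protein is now placed. Symbols are those of the older annotation in the files, so ATP5G2 is the gene now called ATP5MC2. All 73 genes and the second NDUFA7 entry passed the filter of a mean of at least 1 read in a library, which gave 74 entries in every comparison.

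SAS and Cal33 are established HNSCC lines, and each was kept as sham-irradiated cells, cells given 4.5 µM GSK-J1, cells given 4 Gy of ionizing radiation and cells given GSK-J1 and 4 Gy. Each of the 8 groups has 3 libraries, 24 in all, and RNA was taken at 24 h. GSK-J1 inhibits UTX and JMJD3, the enzymes that remove methyl groups from lysine 27 of histone H3. No source used here says that the replicates were separate cultures, so p-values measure the spread between these libraries, which may be technical. Cells were grown in culture, and fewer cells of a kind and less RNA per cell cannot be told apart in bulk RNA.

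Complex I (NADH dehydrogenase), complex III (the cytochrome bc1 complex) and complex IV (cytochrome c oxidase) pump protons, complex II (succinate dehydrogenase) links the chain to the tricarboxylic acid cycle without pumping, and complex V is the ATP synthase. All but complex II also contain subunits encoded in the mitochondrial genome, so their assembly draws on genes of both genomes. The nuclear subunit genes are known as targets of the nuclear respiratory factor NRF1, of factors of the ETS family and of YY1, and their transcription is raised by coactivators such as PPARGC1A.

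Promoter stretches are shown for 3 of the members that passed the test as lower after irradiation in Cal33 and for SDHA, whose levels set the lines apart. RefSeq promoters (assembly GRCh38.p14, 250 bases before to 50 after the annotated start) were matched for 59 of the 73 genes. The NRF1 core, searched as CGCNTGCGC on both strands, was found in 21 of these 59 (35.6%), against 7.46% of 34796 promoters of all genes. The ETS core CCGGAAG was found in 18 (30.5%), against 10.2% of all promoters, and the YY1 core ATGGCGG also in 18 (30.5%), against 5.55%. No pair of these letter strings is contained in each other, and a match on 1 strand of a palindromic stretch can overlap a match on the other. Each stretch below is 30 bases long on the strand of the gene, with the NRF1 core in capitals. The first 3 genes passed the test by edgeR as lower after irradiation in Cal33. The last, SDHA, encodes the flavoprotein of complex II and was also lower in all 6 irradiated than in all 6 unirradiated Cal33 libraries.
ATP5G2, chr12:53676105-53676134, minus strand: gcccgggtcaCGCATGCGCtgagccttcct
NDUFA8, chr9:122159763-122159792, minus strand: ttgccggatgCGCATGCGCaggcgccgtgt
UQCRC1, chr3:48609673-48609702, minus strand: tacggtactgCGCCTGCGCcgcgaccgcca
SDHA, chr5:218144-218173, plus strand: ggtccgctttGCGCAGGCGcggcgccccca
SDHA, chr5:218193-218222, plus strand: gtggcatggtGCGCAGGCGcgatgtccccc
SDHA, chr5:218242-218271, plus strand: ccggcgtggtGCGCAGGCGcggtatccccc
SDHA, chr5:218291-218320, plus strand: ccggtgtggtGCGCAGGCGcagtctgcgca
The match starts 41 bases before the annotated start of ATP5G2, 3 before that of NDUFA8 and 46 before that of UQCRC1. NDUFA8 has other matches that overlap the one shown, and UQCRC1 has another 12 bases before its start. SDHA holds the same 9 letters 4 times, at 166, 117, 68 and 19 bases before its start. The windows of ATP5G1 and UQCRC2 hold none of the 3 cores. Of the other members lower in all 6 irradiated than in all 6 unirradiated Cal33 libraries, ATP5O holds the NRF1 core. COX4I1, COX6B1, NDUFA10, NDUFC1, NDUFV1, UQCRC2 and UQCRH were matched and lack it. Among members higher in all 6 irradiated SAS libraries, ATP5J, COX6A1, NDUFAB1 and UQCRFS1 hold it and SDHB does not. A link between the core and the fall was not tested. These matches describe letters in a window and not sites of binding.

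The libraries held between 54200036 and 96848227 assigned reads, and 94.4 to 95.2% of them counted on the strand of the gene. Keratinocyte and squamous genes were read in every library, among them KRT5 at 1117 to 2309 CPM (the usual counts per 1000000 reads of the library) in SAS and 3409 to 6123 CPM in Cal33, and TP63 at 218 to 424 CPM over both lines. The leukocyte genes PTPRC and CD3E stayed at or below 0.12 CPM. COL1A1 read 22.7 to 43.2 CPM in Cal33 and 1.49 to 4.12 CPM in SAS, while COL1A2 and COL3A1 did not exceed 0.388 CPM. In 2 SAS libraries, replicate 1 of GSK-J1 and replicate 1 of GSK-J1 with 4 Gy, 6 transcripts that SAS otherwise lacked stood at 1.56% and 0.800% of their Cal33 level, and at most 0.00484% in the other 10. Values of SAS groups with GSK-J1 include those 2 libraries unless they are said to be left out.

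Per kilobase of exon, the most abundant member in sham-irradiated cells of both lines was ATP5B, the catalytic beta subunit of ATP synthase, at 347 ± 11.9 CPM per kb in SAS and 518 ± 41.8 in Cal33 (SD, n = 3). COX8A and NDUFS5, small subunits of complexes IV and I, were next in the order of means in both lines with 207 ± 22.2 and 140 ± 36.03 CPM per kb in SAS and 268 ± 11.9 and 174 ± 14.8 in Cal33. In SAS the next gene in the order, UQCRH at 133 ± 11.4 CPM per kb, did not differ from NDUFS5 beyond their spread, and in Cal33 neither did COX6B1 at 173 ± 10.2 CPM per kb. The median over the genes of a complex was lowest for complex I, at 15.0 CPM per kb in SAS and 20.5 in Cal33, and highest for complex IV, at 55.4 and 79.4. Complex II, III and V medians lay between, at 31.7, 35.2 and 35.4 CPM per kb in SAS and at 35.96, 77.2 and 46.1 in Cal33. These orders depend on the annotated exon length, which was 507 bases for COX8A and 4792 for COX4I1. Without division by length COX4I1 stood above COX8A, at means of 270 against 105 CPM in SAS and 321 against 136 CPM in Cal33. The lowest members were NDUFV2, NDUFA7 and NDUFA13, at 0.421 to 1.06 CPM per kb in Cal33. NDUFV2, NDUFA7 and NDUFA13, and NDUFC2 with them, overlap a second annotated gene on the same strand, so that reads shared by both entries may not have been assigned, and their levels are uncertain. NDUFV2 also has a named pseudogene, read at most 104 times in a library, against 47 to 173 for NDUFV2 itself. Such pseudogenes are annotated for 36 of the 73 genes. In all, 29 of the 73 genes have a span that overlaps another on the same strand. ATP5B, ATP5G2, ATP5O, COX6A1, NDUFA6, NDUFB5 and SDHD are among these.

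The sham-irradiated cells of the lines were compared first, because any response starts from these levels. Most members were higher in Cal33. By edgeR, 47 of 74 entries were higher and 9 lower at an adjusted p under 0.05, against 27.2% of all 24597 genes higher and 27.2% lower. The median log2 difference, Cal33 minus SAS, was 0.45 over the members and 0.02 over all genes. Without overlap of the 3 libraries of each line, 47 members were higher and 6 lower, against 28.5% and 29.1% of all genes. The direction was shared by the complexes, with 22 higher and 5 lower of 36 in complex I, 3 and 1 of 4 in complex II, 4 and 1 of 9 in complex III, 7 and 1 of 10 in complex IV and 11 and 1 of 15 in complex V.

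**Figure D1:**
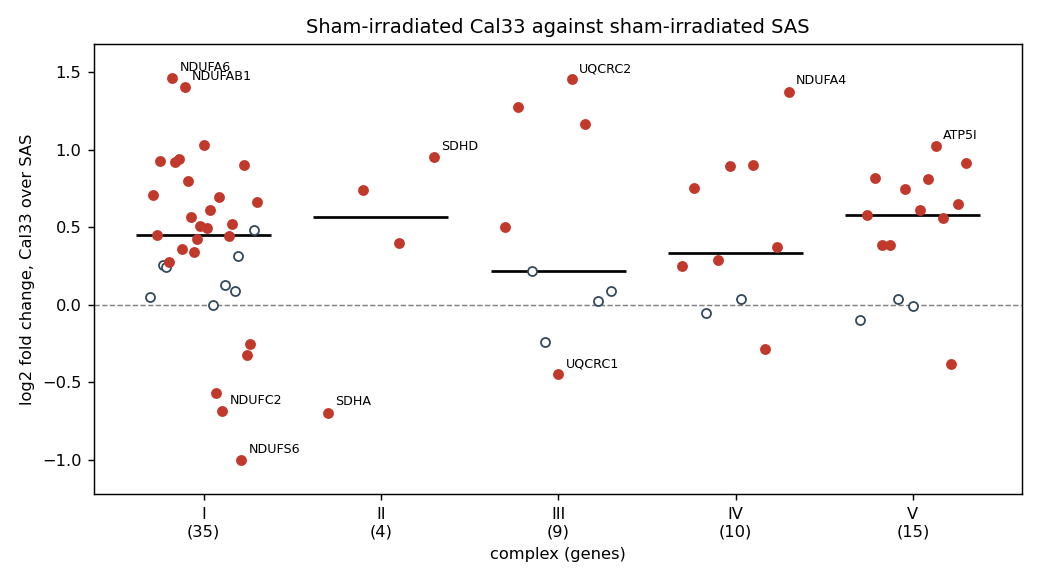
Log2 fold change of sham-irradiated Cal33 over sham-irradiated SAS (vertical axis) for the 73 genes by complex (horizontal axis, number of genes in brackets). Each circle is a gene, filled at an adjusted p under 0.05 by edgeR, and the bars are medians per complex. Most circles lie above 0, NDUFA6 is the highest at 1.46 and NDUFS6 the lowest at -1.001.

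In complex I the largest differences were those of NDUFA6, an accessory subunit, NDUFAB1, the mitochondrial acyl carrier protein, and NDUFB5, an accessory subunit of the membrane arm. NDUFA6 read 26.5, 25.1 and 26.9 CPM in SAS and 66.7, 84.5 and 64.6 CPM in Cal33, a log2 difference of 1.46 ± 0.12 (SE, adjusted p = 9.52e-10 by edgeR). NDUFAB1 read 35.1, 38.9 and 36.6 CPM in SAS and 85.4, 102 and 105 CPM in Cal33 (1.40 ± 0.11 on the log2 scale, adjusted p = 6.07e-10 by edgeR). For both genes every Cal33 library lay above every SAS library. NDUFB5 differed by 1.03 ± 0.09 on the log2 scale. In complex III, UQCRC2, 1 of the core proteins, read 148, 146 and 128 CPM in SAS and 344, 382 and 429 CPM in Cal33 (1.45 ± 0.11, adjusted p = 1.63e-10 by edgeR). The groups are far apart, and UQCR10, a small accessory subunit, and UQCRFS1, the Rieske iron-sulfur protein, followed with log2 differences of 1.27 ± 0.11 and 1.16 ± 0.08. NDUFA4 led complex IV with 81.9, 74.3 and 63.5 CPM in SAS and 167, 217 and 185 CPM in Cal33 (1.37 ± 0.14 on the log2 scale, adjusted p = 1.91e-08 by edgeR), before the accessory subunits COX7A2 (0.90 ± 0.15) and COX6B1 (0.89 ± 0.13). In complex V, ATP5I, ATP5O and ATP5C1, which encode subunit e, the peripheral stalk protein OSCP and the gamma shaft, were higher by 1.02 ± 0.14, 0.91 ± 0.11 and 0.81 ± 0.13. Replicate 3 of the SAS sham group read lowest of its group for NDUFA4, COX7A2, COX6B1 and ATP5I, with 45.5 CPM against 68.9 and 70.9 for COX7A2.

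The subunits of complex II went apart. SDHA, the flavoprotein that oxidises succinate, was higher in SAS, at 359, 354 and 317 CPM against 217, 204 and 216 CPM in Cal33, and its log2 difference was -0.70 ± 0.12 (adjusted p = 3.66e-05 by edgeR). SDHB, the iron-sulfur subunit, was higher in Cal33, at 79.7, 74.7 and 66.8 CPM in SAS and 114, 129 and 126 CPM in Cal33 (0.74 ± 0.09, adjusted p = 5.24e-07 by edgeR), and so was the membrane anchor SDHD (0.95 ± 0.12). Neither gene's libraries overlapped between the lines. SDHA has 3 named pseudogenes, of which the most read had 3066 reads in a library, against 11957 to 37179 for SDHA itself. NDUFS6, the lowest member and chosen after its values were seen, read 135, 120 and 124 CPM in SAS and 63.7, 65.7 and 59.9 CPM in Cal33 (-1.001 ± 0.10, adjusted p = 3.32e-08 by edgeR).

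Where members differed between the lines, their chromosomal neighbours tended to differ too. The neighbours were all other genes within 1000000 bases of a member that had a mean of at least 10 reads. Over 71 entries with at least 5 such neighbours, both NDUFA7 entries included, the log2 difference of the member and the median of its neighbours had a Pearson r of 0.675 and a Spearman rho of 0.672; members near each other share neighbours, all points share the same 6 libraries, and no p is given. On the short arm of chromosome 5, SDHA (5:218356-256815 in the older build hs37d5) had 22 neighbours, of which 18 were lower in Cal33 and none higher at an adjusted p under 0.05 by edgeR, with a median of -1.53. NDUFS6, nearby at 1801514-1816719, had 16 neighbours with a median of -1.60. NDUFAB1 on chromosome 16 had 16 neighbours, all with a positive difference, 15 of them past the test, and a median of 1.09. NDUFB5 and UQCRFS1 stood apart from theirs, at 1.03 against -0.41 and at 1.16 against -0.09. Other genes were not compared with their neighbours, so this agreement is not shown to be particular to the members. Copy number was not measured here, and its part in these differences was not tested.

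In Cal33, irradiation was followed by lower levels of nearly the whole set. For 4 Gy against sham, 70 of 74 entries had a negative log2 change, where 51.0% of all genes had a positive one, and the median over the members was -0.24 against 0.01 over all genes. The shift was shared by the complexes, with medians of -0.21, -0.33, -0.24, -0.27 and -0.25 for complexes I to V (complex I over 36 entries), and each gene of complexes II to V had a negative change. Few single genes passed the test, namely 4 lower and none higher by edgeR, while 2.81% of all 24351 genes were called lower and 3.47% higher. At an unadjusted p under 0.05 there were 28 of 74 members (37.8%) against 22.4% of all genes, and DESeq2 called 14 members lower, against 5.26% of all genes lower and 5.74% higher. With the replicate number as a block 11 were lower, against 4.71% of all genes lower and 5.20% higher, although same-numbered sham and treated libraries did not all deviate together. Without overlap of the 3 libraries of each group, 41 members were lower and 1 higher, against 12.4% and 13.4% of all genes.

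The change recurred under the inhibitor. For GSK-J1 with 4 Gy against GSK-J1, 70 of 74 entries again had a negative log2 change, with a median of -0.25, and 38 members were lower and none higher without overlap of the 3 libraries, against 12.9% and 13.2% of all genes. By edgeR, 3 members were lower and none higher, against 2.07% and 3.04% of all genes, and DESeq2 called 15 lower, against 4.53% and 5.61%. With the replicate number as a block the count rose to 9 lower, against 3.63% of all genes lower and 5.04% higher. It rose to 17 lower when the block was fitted to these 6 libraries, against 8.37% and 10.0%. Over both pairs of groups, 17 members lay lower in all 6 irradiated than in all 6 unirradiated Cal33 libraries, against 5.78% of all genes, and none lay higher, against 6.85%. Among them are ATP5G2, ATP5G3, ATP5O, COX4I1, COX6B1, CYC1, NDUFA10, NDUFA8, NDUFB5, NDUFC1, NDUFV1, SDHA, SDHC, UQCRC1, UQCRC2 and UQCRH.

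**Figure D2:**
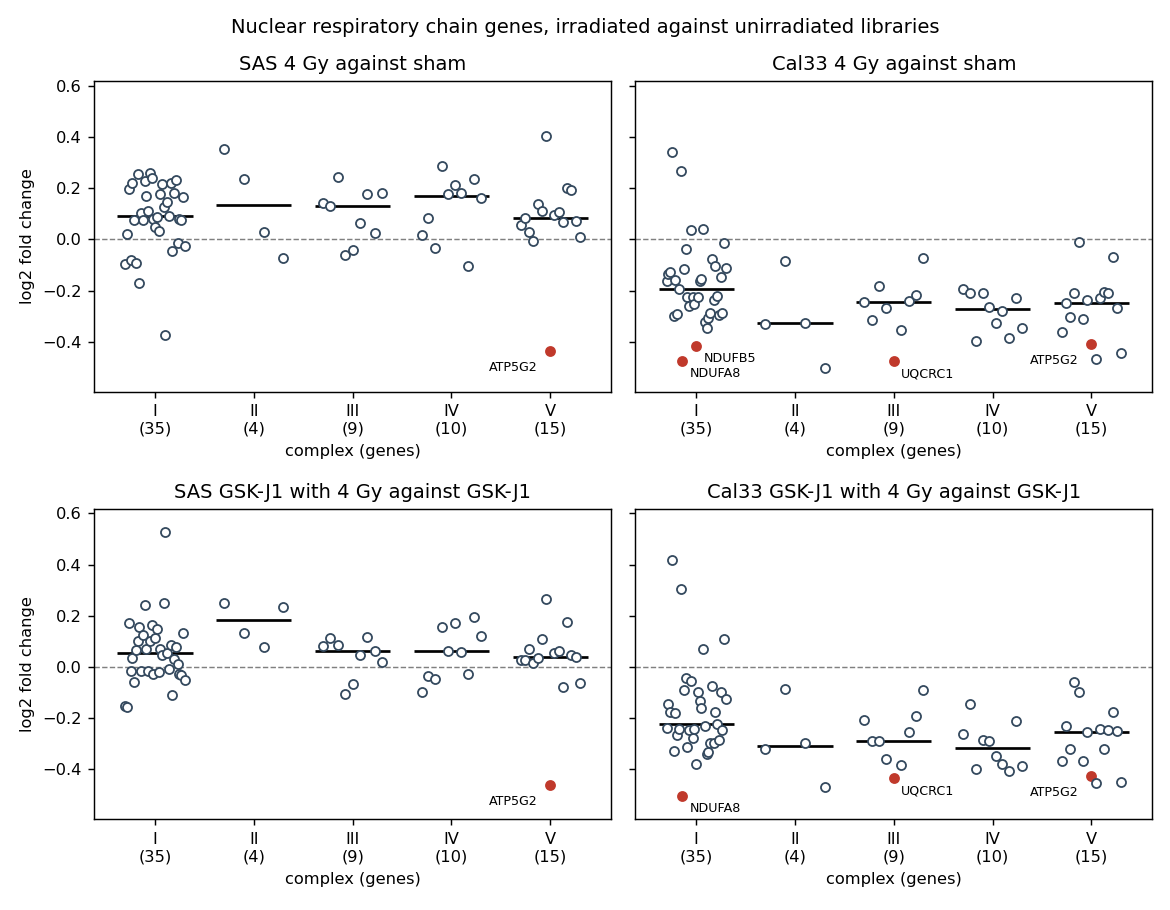
Log2 fold change of irradiated over unirradiated cells (vertical axis) for the 73 genes by complex (horizontal axis, number of genes in brackets), without GSK-J1 in the upper row and with it in the lower row, SAS left and Cal33 right. Filled, named circles passed an adjusted p of 0.05 by edgeR, and bars are medians per complex over the genes drawn, without the second NDUFA7 entry. In Cal33 nearly all circles lie below 0, in SAS most lie above 0, and ATP5G2 lies below -0.40 in all 4 panels.

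Of the called genes, UQCRC1, a core protein of complex III, read 188, 164 and 161 CPM in sham-irradiated Cal33 and 113, 129 and 124 CPM after 4 Gy, a log2 change of -0.47 ± 0.10 (adjusted p = 0.0215 by edgeR). Under GSK-J1 it read 174, 178 and 166 CPM without and 113, 132 and 133 CPM with 4 Gy (-0.43 ± 0.10, adjusted p = 0.0340 by edgeR). All 6 irradiated libraries lay below all 6 others. NDUFA8, an accessory subunit of complex I, read 81.2, 98.3 and 81.7 CPM in sham cells and 56.8, 63.0 and 66.5 CPM after 4 Gy (-0.47 ± 0.12, adjusted p = 0.0397 by edgeR), and fell by 0.50 ± 0.12 on the log2 scale under GSK-J1 (adjusted p = 0.0353). NDUFB5 read 86.0, 98.3 and 101 CPM in sham cells and 71.5, 71.0 and 69.0 CPM after 4 Gy (-0.42 ± 0.11, adjusted p = 0.0429 by edgeR), with -0.38 ± 0.11 under GSK-J1 (adjusted p = 0.0673). Both genes were separated in the same way, and the fourth called gene was ATP5G2, a gene of subunit c of the ATP synthase. Representative subunits that did not pass had log2 changes after 4 Gy of -0.29 ± 0.10 (NDUFV1), -0.33 ± 0.10 (SDHA), -0.24 ± 0.10 (UQCRFS1), -0.19 ± 0.10 (COX4I1) and -0.25 ± 0.13 (ATP5B).

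These calls rest on few libraries. For 4 Gy against sham the 4 calls became 0 without replicate 1 or replicate 3 of the 4 Gy group, 1 without its replicate 2, and 1, 2 and 1 without replicates 1, 2 and 3 of the sham group. For GSK-J1 with 4 Gy against GSK-J1 the 3 calls became 1, 4 and 0 without replicates 1, 2 and 3 of the irradiated group and 0 without any replicate of the other. The number of members with a negative change moved less, between 65 and 71 over these 12 omissions. The 6 libraries of either comparison fitted alone gave 0 calls. Calls over all genes fell too. For 4 Gy against sham 684 of 24351 genes were lower in the main fit and 267 of 24555 with the 6 libraries. For GSK-J1 with 4 Gy against GSK-J1 these were 504 of 24351 and 312 of 24437. Without replicates 1, 2 and 3 of the irradiated group, 184, 431 and 109 genes in all were lower in that comparison.

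**Figure D3:**
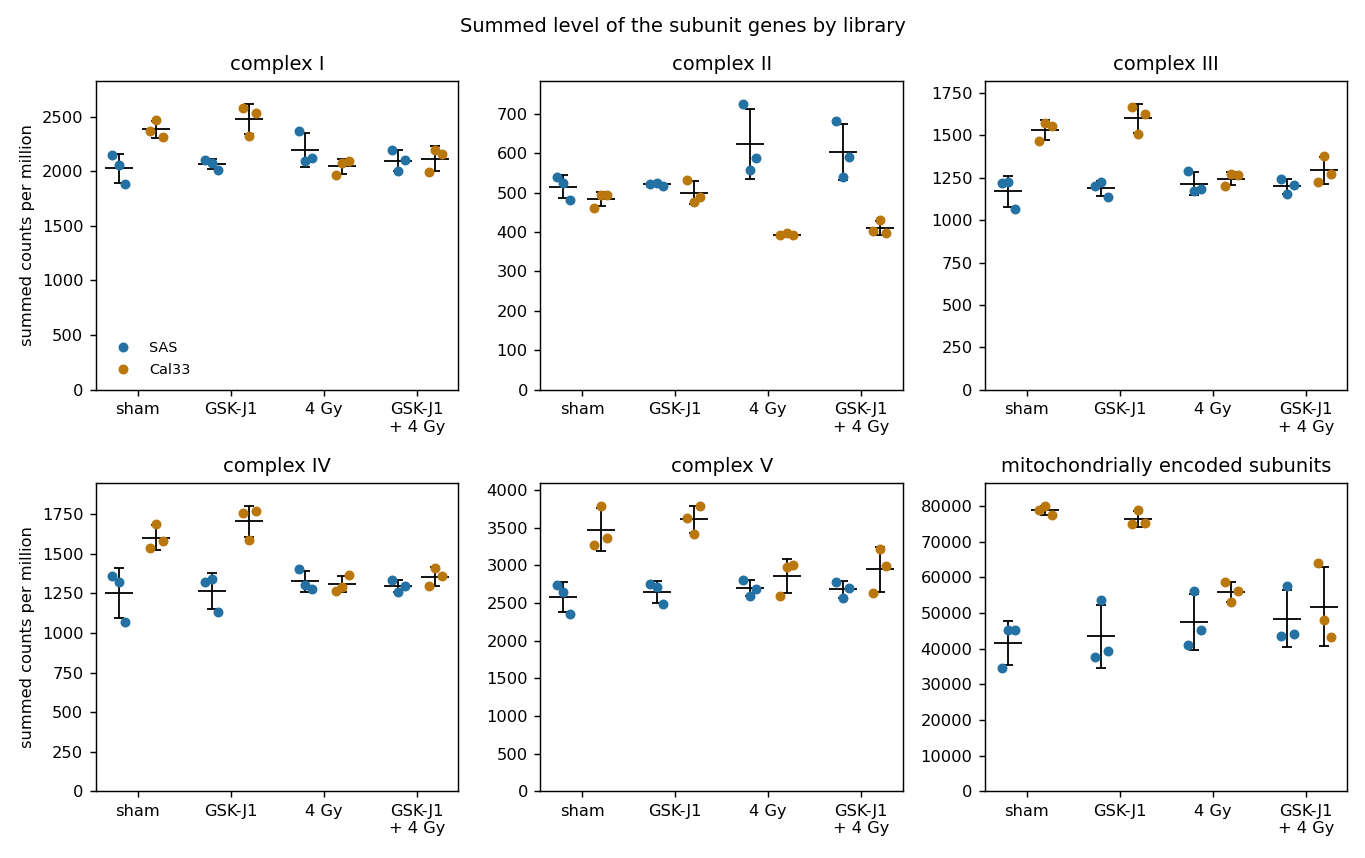
Summed CPM (vertical axis, from 0) of the genes of each complex, and of the 13 mitochondrially encoded subunits, in the 4 treatments (horizontal axis). Points are libraries, bars are means with SD over 3 libraries, blue is SAS and orange Cal33. The irradiated Cal33 libraries lie below the unirradiated ones for each complex, while SAS libraries do not separate in that direction.

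Summed over all members, Cal33 libraries read 9094 to 10016 CPM in the sham group and 7414 to 8113 CPM after 4 Gy, or 78.3 to 85.7% of the sham mean. With GSK-J1 the sums were 9320 to 10200 CPM without and 7547 to 8634 CPM with 4 Gy. The transcripts of the 13 subunits encoded in mitochondria moved the same way. Their sum was 77490 to 80143 CPM in the sham group and 53028 to 58745 CPM after 4 Gy, with a median log2 change of -0.51 over the 13 genes, of which 5 were lower by edgeR. The largest change was that of MT-ATP6, a membrane subunit of ATP synthase, at -0.70 ± 0.18 (adjusted p = 0.0404 by edgeR). The other 4 were MT-ATP8, MT-CO3, MT-CO2 and MT-ND6, and under GSK-J1 these 5 genes again passed, with MT-ATP8 at -0.73 ± 0.17. Their part in the change of the nuclear genes was not tested.

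Few other genes of the pathway were called in Cal33 after 4 Gy. Each list below had a negative median log2 change, from -0.03 (isoform genes) to -0.26 (tricarboxylic acid cycle genes). Of 14 regulators of mitochondrial biogenesis 1 was lower and none higher by edgeR. It was PPARGC1A, a coactivator of respiratory genes, at 33.03, 27.6 and 21.5 CPM in sham cells and 5.04, 13.0 and 9.27 CPM after 4 Gy (-1.57 ± 0.38 on the log2 scale, adjusted p = 0.0333 by edgeR), with -1.61 ± 0.39 under GSK-J1. All irradiated libraries lay below all others for this gene. In SAS it did not exceed 0.436 CPM, a value reached in the GSK-J1 replicate 1 that held Cal33 transcripts. Of 23 complex IV assembly genes 1 was higher, SCO2, which delivers copper to cytochrome c oxidase, at 25.5, 18.9 and 19.4 CPM in sham cells and 51.8, 28.4 and 35.7 CPM after 4 Gy (0.87 ± 0.21, adjusted p = 0.0335 by edgeR). Of 6 complex III assembly genes 1 was lower, LYRM7 (-0.54 ± 0.14). Of 14 tricarboxylic acid cycle genes 1 was lower and none higher by edgeR, without and with GSK-J1. Their median log2 change was -0.26, and -0.23 under GSK-J1. None of 15 complex I assembly, 4 complex II assembly and 6 ATP synthase assembly and regulation genes and none of 7 tested isoform genes passed the test.

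In SAS the members leaned the other way after irradiation, by less. For 4 Gy against sham, 58 of 74 had a positive log2 change, where 47.6% of all genes had one, with a median of 0.09 over the members and -0.02 over all genes. Medians by complex were 0.09, 0.13, 0.13, 0.17 and 0.08 for complexes I to V. On leaving out each library of the 2 groups the median over the members was 0.02 to 0.14 and the number positive 45 to 62, with the lowest of both without sham replicate 3 and 46 positive without 4 Gy replicate 1. By edgeR 1 member was called, ATP5G2, which was lower, and none was higher, against 3.45% of all 23416 genes lower and 3.63% higher. At an unadjusted p under 0.05 there were 16 members (21.6%) against 23.4% of all genes. DESeq2 called 7 higher and 1 lower, against 6.67% and 5.48% of all genes. Without overlap of the 3 libraries of each group 15 members were higher and 1 lower, against 13.0% and 13.8% of all genes. For GSK-J1 with 4 Gy against GSK-J1 the median was 0.06, 51 of 74 were positive, and again 1 member, ATP5G2, was lower and none higher by edgeR and by DESeq2, against 1.99% and 2.43% of all genes by edgeR and 4.80% and 4.78% by DESeq2. Without overlap 11 members were higher and 3 lower in that comparison, against 3271 and 2812 of all 23416 genes. Without the 2 libraries that held Cal33 transcripts, 0 members were called by edgeR, 49 were positive and the median was 0.06, and 19 members were higher and 10 lower without overlap of 2 against 2 libraries, against 24.4% and 22.1% of all genes.

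Same-numbered SAS libraries deviated together from their group means, and the counts depended on whether the replicate number was used. With the number as a block, 15 members were higher and 1 lower after 4 Gy, against 11.3% and 13.2% of all genes. For GSK-J1 with 4 Gy against GSK-J1 they were 4 higher and 2 lower, against 10.4% of all genes higher and 2583 of 23416 genes lower. The higher ones after 4 Gy included ATP5G1 (0.43), SDHA (0.34), COX6A1 (0.29), NDUFA6 (0.26) and SDHB (0.24 on the log2 scale). Fitted to the 6 libraries with the block, 5 were higher (ATP5G1, SDHA, COX6A1, SDHB and NDUFS6) and 1 lower, against 7.85% and 8.76% of all genes. SDHA read 359, 354 and 317 CPM in sham cells and 529, 378 and 409 CPM after 4 Gy (0.35 ± 0.13, adjusted p = 0.129 by edgeR without the block and 0.0181 with it), so that the groups did not overlap and replicate 1 after 4 Gy lay far above the others. COX6A1, an accessory subunit of complex IV, read 61.3, 64.2 and 50.3 CPM in sham cells and 72.5, 76.0 and 66.6 CPM after 4 Gy (0.29 ± 0.09, adjusted p = 0.0813). Over both pairs of groups, 5 members lay higher in all 6 irradiated than in all 6 unirradiated SAS libraries, ATP5J, COX6A1, NDUFAB1, SDHB and UQCRFS1, against 5.74% of all genes, and 1 lay lower, ATP5G2, against 5.80%. Without the 2 libraries that held Cal33 transcripts these same genes lay apart, 5 libraries against 5.

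**Figure D4:**
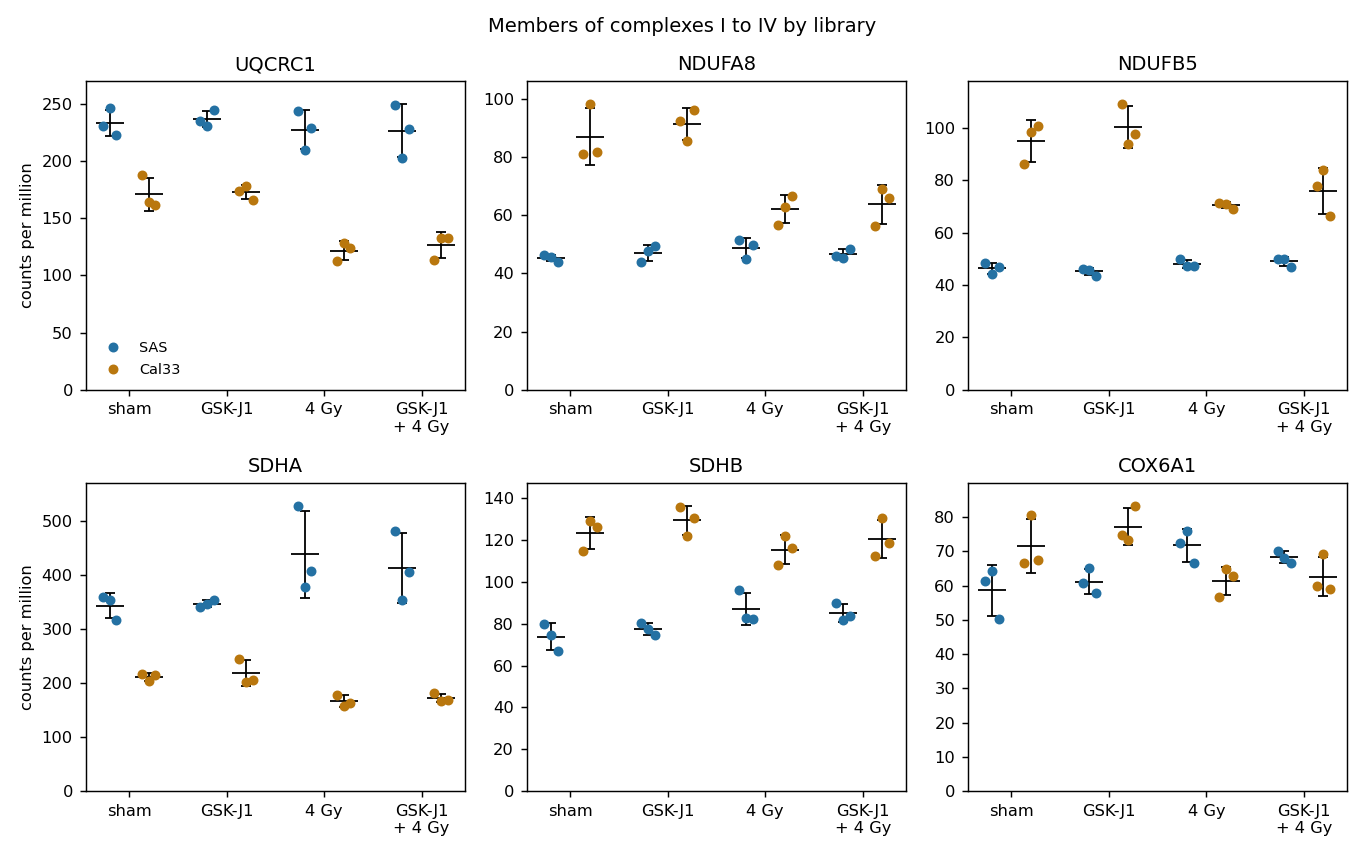
CPM (vertical axis, from 0) of 6 members in the 4 treatments (horizontal axis). Points are libraries, bars are means with SD over 3 libraries, blue is SAS and orange Cal33. UQCRC1, NDUFA8 and NDUFB5 are lower after 4 Gy in Cal33 while their SAS groups overlap, and SDHA is higher in SAS throughout, with replicate 1 after 4 Gy highest at 529 CPM.

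Among other genes of the pathway in SAS after 4 Gy, 2 of 15 complex I assembly genes were higher (NDUFAF5 at 0.45 ± 0.11 and NDUFAF2 at 0.43 ± 0.11) and 1 lower (NUBPL, which inserts iron-sulfur clusters, at -0.35 ± 0.08). Of 23 complex IV assembly genes 3 were higher, CMC2 (0.41 ± 0.09), TACO1 (0.29 ± 0.07) and SCO1 (0.26 ± 0.06). Of 14 tricarboxylic acid cycle genes 2 were higher, IDH3A and IDH3B, which encode subunits of the NAD-dependent isocitrate dehydrogenase, both by 0.38. IDH3A read 39.0, 38.4 and 37.0 CPM in sham cells and 50.3, 49.7 and 49.5 CPM after 4 Gy (adjusted p = 0.00682 by edgeR), and its groups were widely separated. USMG5, a small protein of the ATP synthase, rose by 0.27 ± 0.07 after 4 Gy and by 0.60 ± 0.07 under GSK-J1 (47.5, 47.1 and 48.3 CPM without and 71.0, 75.3 and 70.9 CPM with 4 Gy, adjusted p = 0.00136 by edgeR). TFB2M, a mitochondrial transcription factor, and CYCS, which encodes cytochrome c, were higher by 0.30 ± 0.08 and 0.46 ± 0.12. None of the 13 mitochondrially encoded genes was called, and their median log2 change was 0.14. None of 4 complex II and 6 complex III assembly genes was called. Under GSK-J1, USMG5, IDH3A and CMC2 were again higher, and ACAD9, a complex I assembly factor, was lower by edgeR (-0.25 ± 0.06). Without the 2 libraries that held Cal33 transcripts USMG5 passed again (0.61 ± 0.10, adjusted p = 0.0305 by edgeR), but IDH3A (adjusted p = 0.0905), CMC2 (0.277) and ACAD9 (0.218) did not. For 4 Gy against sham, where those libraries enter the estimate of the spread alone, the adjusted p of NDUFAF2, SCO1, TACO1, USMG5, TFB2M, IDH3B and CYCS was then 0.0553 to 0.0783 by edgeR.

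ATP5G2 was the member called in all 4 comparisons of irradiated with unirradiated cells. It is 1 of 3 genes, with ATP5G1 and ATP5G3, that encode the same mature subunit c, the protein of the proton-driven ring of ATP synthase, behind different import sequences. In SAS, ATP5G2 read 205, 194 and 165 CPM in sham cells, 150, 137 and 131 CPM after 4 Gy, 204, 191 and 174 CPM with GSK-J1 and 149, 132 and 134 CPM with both. In Cal33, ATP5G2 read 186, 179 and 197 CPM in sham cells, 147, 132 and 140 CPM after 4 Gy, 219, 185 and 193 CPM with GSK-J1 and 159, 140 and 140 CPM with both. In each line the 6 irradiated libraries lay below the 6 others.

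The log2 changes of ATP5G2 were -0.44 ± 0.10 for 4 Gy against sham in SAS (adjusted p = 0.0203 by edgeR), -0.46 ± 0.10 under GSK-J1 in SAS (adjusted p = 0.0222), -0.41 ± 0.10 in Cal33 (adjusted p = 0.0308) and -0.43 ± 0.10 under GSK-J1 in Cal33 (adjusted p = 0.0289). The comparison without and that with GSK-J1 share no library, but the fits share their estimate of the spread. In SAS the call for 4 Gy was lost without replicate 2 or 3 of the 4 Gy group or replicate 1 or 2 of the sham group, with changes between -0.52 and -0.37 and an adjusted p of at most 0.0950 by edgeR over the omissions. The call under GSK-J1 in SAS was lost without replicate 2 or 3 of the irradiated or replicate 1 or 2 of the other group, and also without the 2 libraries that held Cal33 transcripts, where the adjusted p was 0.121. In Cal33 each call of ATP5G2 was lost in 5 of 6 omissions, at an adjusted p of at most 0.115.

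**Figure D5:**
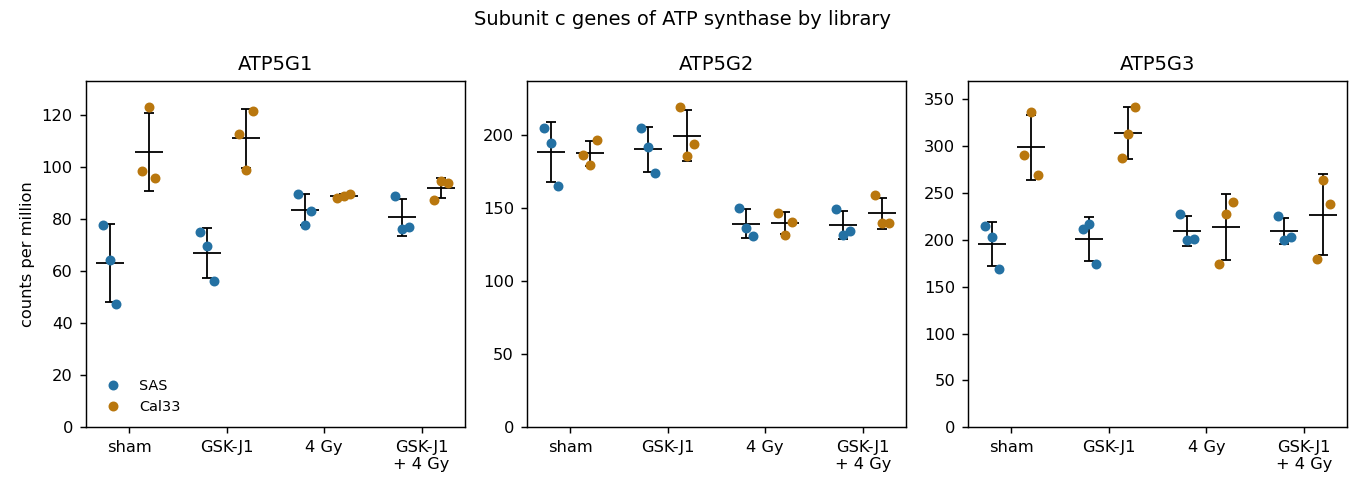
CPM (vertical axis, from 0) of ATP5G1, ATP5G2 and ATP5G3 in the 4 treatments (horizontal axis). Points are libraries, bars are means with SD over 3 libraries, blue is SAS and orange Cal33. ATP5G2 is lower in the irradiated libraries of both lines, while the mean of ATP5G1 is higher in those of SAS and lower in those of Cal33, neither past the test without the block.

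The paralogues did not follow ATP5G2 in SAS. ATP5G1 read 77.8, 64.2 and 47.5 CPM in sham-irradiated SAS and 89.8, 77.9 and 83.3 CPM after 4 Gy (0.40 ± 0.15 on the log2 scale, adjusted p = 0.133 by edgeR without the block and 0.00420 with it), and the groups lay edge to edge without overlap. ATP5G3 read 215, 203 and 169 CPM in sham-irradiated SAS and 227, 199 and 201 CPM after 4 Gy (0.10 ± 0.11). In Cal33, ATP5G1 read 98.5, 123 and 95.9 CPM in sham cells and 88.2, 89.0 and 89.9 CPM after 4 Gy (-0.24 ± 0.12), and ATP5G3 read 291, 336 and 269 CPM and 174, 228 and 240 CPM (-0.47 ± 0.17, adjusted p = 0.118 by edgeR without the block and 0.0322 with it).

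The share of each gene among the subunit c transcripts was then compared, a measure chosen after the levels were seen. ATP5G2 held 40.0 to 43.3% of the reads of the 3 genes in the 6 unirradiated SAS libraries and 31.5 to 33.01% in the 6 irradiated ones, a difference of -9.63 percentage points with means of 41.9% ± 1.23 and 32.3% ± 0.488 (SD, n = 6). ATP5G1 rose from 14.3% ± 1.14 to 19.1% ± 0.554 and ATP5G3 from 43.8% ± 0.923 to 48.6% ± 0.333. An exact two-sided permutation test of irradiation within each level of GSK-J1 gave p = 0.005 for each of the 3 genes in SAS, the smallest that its 400 arrangements allow (0.01 after Benjamini-Hochberg adjustment over 6 tests). Without the 2 libraries that held Cal33 transcripts the share of ATP5G2 was 41.9% ± 1.37 and 32.3% ± 0.545 (SD, n = 5), and each of the 3 genes had an exact permutation p = 0.0167, the smallest that 120 arrangements allow. In Cal33 the share of ATP5G2 was 31.7% ± 3.88 in irradiated and 31.9% ± 2.96 in unirradiated libraries (exact permutation p = 0.925), that of ATP5G1 20.0% ± 0.962 and 17.8% ± 1.04 (p = 0.01, adjusted 0.015), and that of ATP5G3 48.3% ± 4.71 and 50.3% ± 2.61 (p = 0.375). The difference of these changes between the lines was not tested. The shares of the 3 genes sum to 100 and are not independent of each other. The measure was chosen from the same libraries, so the p-values describe how these libraries separate and are no independent support. They take no account of the replicate numbers, and the adjustment does not cover the choice of these 3 genes among the 73.

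The response to 4 Gy was then compared between the lines in a fit of all 24 libraries. The response was lower in Cal33 for 69 of 74 entries, with a median difference of -0.35 over the members and 0.02 over all genes. No member passed the adjusted test by edgeR, where 0.285% of all 24597 genes were called higher and 0.142% lower, but 43 members (58.1%) had an unadjusted p under 0.05, against 10.0% of all genes. DESeq2 called 8 members, all lower, against 0.756% of all genes lower and 1.03% higher. With the replicate number as a block within each line 12 were lower, against 1.02% of all genes lower and 1.55% higher. The members with the smallest p were NDUFA8, at -0.59 ± 0.14 (adjusted p = 0.0606 by edgeR), and SDHA, at -0.70 ± 0.17 (adjusted p = 0.0692 by edgeR). SDHA changed by 0.35 ± 0.13 in SAS and by -0.33 ± 0.10 in Cal33, and neither passed on its own without the block, while with it both passed (adjusted p = 0.0181 and 0.0306 by edgeR). Differences of representative subunits of the other complexes were -0.44 ± 0.12 (UQCRFS1), -0.23 ± 0.12 (COX4I1) and -0.35 ± 0.14 (ATP5B), and ATP5G2 differed by 0.01 ± 0.14. Both lines contribute to this comparison the same libraries as the comparisons within lines.

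GSK-J1 alone changed no member past the test without the block. In SAS, against sham, 0 of 74 were called by edgeR (0% of all 23416 genes higher and 0% lower) and 0 by DESeq2, with 1 member against 486 genes in all at an unadjusted p under 0.05. That member was NDUFC2, at 7.28, 5.42 and 10.8 CPM in sham cells and 5.86, 5.28 and 5.10 CPM with GSK-J1 (-0.54 ± 0.20, adjusted p = 1), and the groups overlapped. With the replicate block fitted to these 6 libraries it was called lower (-0.50 ± 0.12, adjusted p = 0.0192 by edgeR), the only member, against 1.83% of all genes lower and 0.755% higher. The next, NDUFA6, stood at 0.11 ± 0.09 on the log2 scale. In Cal33, 0 of 74 were called (0% of all 24351 genes) and 0 by DESeq2, with 0 members and 215 genes at an unadjusted p under 0.05. The smallest p belonged to the second entry of NDUFA7, with at most 11 reads in a library, and to COX7A2 at 0.15 ± 0.11. The median log2 change over the members was 0.02 in SAS, with 53 of 74 positive, and 0.07 in Cal33, with 70 of 74 positive against 50.2% of all genes. Without the 2 SAS libraries that held Cal33 transcripts 38 were positive, with a median of 0.0025. In Cal33 the number positive was 48 without sham replicate 1 and 51 without GSK-J1 replicate 3, both with a median of 0.02, and the median was 0.13 without sham replicate 2.

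GSK-J1 added to 4 Gy gave no call either. Against 4 Gy alone, 0 of 74 were called by edgeR in SAS (0% of 23416 genes) and in Cal33 (0% of 24351 genes), and 0 by DESeq2, with 0 members in each line at an unadjusted p under 0.05 and 438 and 244 genes in all. The median was -0.03 in SAS, with 24 of 74 positive against 49.3% of all genes. In Cal33 it was 0.05, with 68 of 74 positive against 56.6% of all genes. On leaving out each library the number positive was 17 to 42 in SAS and 40 to 67 in Cal33. Without the 2 SAS libraries that held Cal33 transcripts the median was -0.07, with 19 positive. The smallest p in SAS were those of SDHD (0.19 ± 0.10) and NDUFC2 (0.36 ± 0.20), and in Cal33 those of NDUFS8 (0.13 ± 0.10) and UQCR10 (0.13 ± 0.10). With the replicate block fitted to the 6 SAS libraries, 2 members were higher (SDHD and NDUFC2) and 7 lower, the lowest being NDUFA11 at -0.20, against 4.47% and 3.51% of all genes. None of the listed assembly, regulator, cycle, isoform or mitochondrially encoded genes was called in any of these 4 comparisons. The difference of the GSK-J1 response between the lines gave 0 calls by edgeR (0% of 24597 genes) and 0 by DESeq2, with a median of 0.04, 0 members and 394 genes at an unadjusted p under 0.05, and the smallest p at the second NDUFA7 entry and at NDUFC2 (0.55 ± 0.41). A p that misses the threshold does not show that the levels were equal.

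Exon length moved with some of these small shifts. Of the 73 members the middle 50% had 1488 to 3997 bases of annotated exon. Among other genes with a mean of at least 1000 reads and at most that upper length, 73.2% had a positive log2 change with GSK-J1 in Cal33, at a median of 0.03, against 46.9% of longer genes. For GSK-J1 with 4 Gy against 4 Gy in Cal33, 78.8% had one, against 65.9% of longer genes, so both classes leaned the same way. For 4 Gy against sham in SAS such genes had a median of 0.05, against 0.13 over the members of that length. For 4 Gy against sham in Cal33 they had a median of 0.04, where the members of that length had -0.24 and the longer members -0.28. The part of length in the other shifts was not tested.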

How the data were processed

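RNA from 24 libraries was sequenced with a stranded total RNA kit. Per the labels and the study's methods, the authors aligned reads with STAR 2.5.3a to hs37d5, used SAMtools 1.6 and counted reads per gene with featureCounts (Subread 1.5.1), and deposited raw counts per gene with and without regard to strand; how reads over overlapping genes were handled is not given in the sources used here. The columns that respect strand were used. Groups came from the labels, and the members and gene lists were chosen with earlier results of these data known.

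Genes with a mean of at least 1 read in a library were fitted in edgeR 4.0.16 (R 4.3.3) with TMM scaling, a mean per group and the quasi-likelihood F test, per line (12 libraries) or over all 24 for comparisons of lines. P-values were adjusted over all genes (Benjamini-Hochberg), called under 0.05, and SE is the log2 change divided by the root of F. CPM use TMM-scaled totals over 24 libraries. The script was tested on simulated data. The genes described in full are, per comparison, the 3 called members of each complex with the largest change, or the 2 with the smallest p where none was called; 1 subunit of each complex and the subunit c genes are also given. Of the other gene lists, up to 3 called genes each are named. Some genes are not reported here by name.

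Same-numbered SAS libraries deviated together from their group means (r = 0.239 to 0.743 over 18 pairs of libraries), and so did those of the 3 treated Cal33 groups (0.173 to 0.808), but not those of treated and sham Cal33 (-0.501 to 0.310). Nothing in the labels says what a number marks. Alternatives were DESeq2 1.42.0 and its size factors, other filters, counts without strand, a replicate block, fewer or more libraries in the fit and each library left out. Totals ranged from 54200036 to 96848227 reads. An SD of levels is over 3 libraries and an SD of subunit c shares over 6 or 5, while an SE comes from the fit.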

Additional observations from a re-analysis of the deposited data

Results flagged for a closer look

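In the difference of the 4 Gy response between the lines, the count depended on the replicate block. With the replicate number as a block within each line, 1.02% of all genes had a lower response in Cal33 than in SAS by edgeR and 1.55% a higher one. Of the members, 12 were lower and none higher with that block, whereas 0 passed without it and DESeq2 without it called 8. Among them are SDHA (-0.69 on the log2 scale), ATP5G1 (-0.68), ATP5G3 (-0.60), NDUFA8 (-0.59), COX6C (-0.56), NDUFA4 (-0.52), COX6A1 (-0.52), NDUFB5 (-0.48), NDUFS1 (-0.47), NDUFC1 (-0.47) and UQCRFS1 (-0.43). Same-numbered sham and treated Cal33 libraries did not all deviate together from their group means, so this count is given as a value. Groups of 3 libraries were not searched for outlying samples.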

How the results depend on the processing

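The number of members called depended on the tool, the filter, the block and the libraries in the fit. With the 6 libraries compared fitted alone it was 0 for 4 Gy against sham in SAS and in Cal33 and 0 for GSK-J1 with 4 Gy against GSK-J1 in Cal33. In those fits 395, 267 and 312 genes in all were lower and 502, 516 and 583 higher, fewer than in the main fits. With DESeq2 it was 8 for 4 Gy against sham in SAS, 14 in Cal33, 15 for GSK-J1 with 4 Gy against GSK-J1 in Cal33 and 8 for the response difference. A fit of all 24 libraries called 16 in both of these Cal33 comparisons, and the share of all genes it called is not given here. A mean of at least 10 counts called 3 for 4 Gy in SAS, 2 higher and 1 lower. With that filter 1158 of 17309 genes were higher and 861 lower. It called 1 for the response difference. The replicate block called 16 (4 Gy in SAS), 6 (GSK-J1 with 4 Gy against GSK-J1 in SAS), 11 (4 Gy in Cal33), 9 (GSK-J1 with 4 Gy against GSK-J1 in Cal33) and, within each line, 12 (response difference). Fitted to the 6 libraries with the block the counts were 6 (4 Gy in SAS), 1 (GSK-J1 in SAS), 9 (GSK-J1 with 4 Gy against 4 Gy in SAS), 6 and 17 (GSK-J1 with 4 Gy against GSK-J1 in SAS and Cal33) and 0 (4 Gy in Cal33), and the block changed no other call count beyond 1.5 times. For GSK-J1 with 4 Gy against GSK-J1 in SAS that fit called 2385 of 23720 genes higher and 2402 lower. Without the SAS libraries that held Cal33 transcripts the count for GSK-J1 with 4 Gy against GSK-J1 in SAS was 0. Leaving out each library gave 0 to 2 (4 Gy in Cal33), 0 to 4 (GSK-J1 with 4 Gy against GSK-J1 in Cal33) and 0 to 1 (each of these comparisons in SAS). The cause was not tested.

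Cal33 against SAS kept 48 to 59 calls throughout. Of 530 values under alternatives of the members chosen by the naming rule, none changed sign, 465 kept their side of the threshold, 57 fell short of it and 8 passed it. The median over the members changed sign on leaving out libraries for GSK-J1 against sham in SAS (-0.04 to 0.07), for GSK-J1 with 4 Gy against 4 Gy in SAS (-0.07 to 0.02) and for the GSK-J1 response difference (-0.03 to 0.12), and in no comparison of irradiated with unirradiated cells. Leaving the libraries with Cal33 transcripts out of the subunit c shares and of the counts without overlap was an alternative chosen after seeing the data.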
